A study of Homo sapiens with 18 samples.

Results

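The 42 genes described here are markers and building blocks of the mesenchymal cell state: cell identity genes, the transcription factors of the epithelial-mesenchymal transition (EMT), contractile genes, collagens, matrix glycoproteins, proteoglycans, cross-linking enzymes and follistatin relatives. They were chosen by symbol from the 23710 genes of each deposited count table, and 42 of 42 were found once in the A253 table. Rows of the SCC25 and CAL27 tables were named by position from A253. The study changed the amount of EHF, which is an ETS transcription factor found mainly in epithelia, in 3 established human head and neck squamous carcinoma (HNSCC) lines and sequenced mRNA. A253 came from a salivary gland carcinoma, and SCC25 and CAL27 came from carcinomas of the tongue. A253 gave 3 control libraries, from cells in regular medium, and 3 libraries of EHF overexpressing cells, which were kept with doxycycline to switch EHF on. SCC25 gave 2 and 2 libraries under the same scheme. CAL27, in regular medium throughout, gave 2 control libraries and 4 libraries of EHF knockdown, 2 for each of 2 hairpins that the count table calls sh 64 and sh 65. Because only overexpressing cells had doxycycline, drug and EHF cannot be told apart in A253 and SCC25. The count table calls the CAL27 controls sh Control, without saying what hairpin they carried. The labels give no vector or drug control for A253 and SCC25. They name no clone or culture for any library, so p-values measure only the spread between these libraries, which may be technical. The deposited CAL27 count and TPM tables exchange the names of the hairpins, so a value given here for 1 hairpin may belong to the other, while their mean does not depend on the names. An EHF ChIP-seq library from CAL27 and the matching input were not analysed here.

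EMT is the process by which epithelial cells lose cadherin junctions and keratins and take on a migratory, vimentin-rich state. It is driven by SNAI, ZEB and TWIST transcription factors, often downstream of TGF-beta. Squamous carcinomas of the head and neck commonly show a partial form, in which SNAI2, laminins, integrins and matrix genes are expressed while keratins persist. Contractile genes such as TAGLN and MYL9 are classical targets of the serum response factor SRF, which reads the actin cytoskeleton through CArG boxes, and CTGF and CYR61 are classical targets of YAP with TEAD factors. Collagens, fibronectin, thrombospondin and tenascin form the matrix itself, and transglutaminase and lysyl oxidases cross-link it.

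Stretches of 4 promoter regions are shown because they carry the classical elements of these regulators or a shared start region of members that moved together. RefSeq's promoter table, on build GRCh38.p14, held an entry for 26 of the 42 genes, matched by symbol. The files themselves were made on hg19, so these coordinates are RefSeq's and not the study's. Each search covered the 250 bases before the start site, on both strands. COL4A1 and COL4A2, the chains of the basement membrane collagen, are transcribed away from each other, and only 126 bases lie between their start sites (chr13:110307158-110307283, plus strand). In that stretch capitals mark a CCAAT box (CCAAT) and a GC box (GGGCGG).
COL4A1 and COL4A2: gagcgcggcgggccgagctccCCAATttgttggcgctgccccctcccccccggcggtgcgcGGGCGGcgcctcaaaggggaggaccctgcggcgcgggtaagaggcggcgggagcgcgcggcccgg
In THBS1 (chr15:39580829-39581078, plus strand) and CTGF (chr6:131951373-131951622, minus strand, listed by RefSeq as CCN2), capitals mark the TEAD site GGAATG.
THBS1: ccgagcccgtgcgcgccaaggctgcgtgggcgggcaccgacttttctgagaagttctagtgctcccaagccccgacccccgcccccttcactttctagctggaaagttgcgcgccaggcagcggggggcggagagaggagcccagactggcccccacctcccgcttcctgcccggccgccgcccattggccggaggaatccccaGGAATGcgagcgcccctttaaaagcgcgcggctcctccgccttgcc
CTGF: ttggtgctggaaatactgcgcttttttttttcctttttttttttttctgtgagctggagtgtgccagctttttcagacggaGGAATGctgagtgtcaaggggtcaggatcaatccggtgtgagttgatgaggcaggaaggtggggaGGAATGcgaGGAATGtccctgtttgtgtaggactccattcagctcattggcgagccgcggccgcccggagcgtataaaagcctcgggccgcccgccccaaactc
In FSTL3 (chr19:676142-676391, plus strand), which encodes a secreted inhibitor of activins, capitals mark a CArG box.
FSTL3: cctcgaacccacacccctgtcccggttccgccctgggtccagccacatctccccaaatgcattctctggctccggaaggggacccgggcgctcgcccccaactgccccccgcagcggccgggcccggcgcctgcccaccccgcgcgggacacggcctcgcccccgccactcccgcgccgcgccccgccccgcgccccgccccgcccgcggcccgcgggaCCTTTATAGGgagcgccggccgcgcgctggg

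The TEAD site occurred in 6 of the 26 promoters (CALD1, COL12A1, SPARC, THBS1, CTGF and FBN1) and in 11.9% of all 35116 RefSeq promoters of the same length. CTGF had 3 matches. The CArG box occurred in 1 of 26, against 1.16% of all promoters. The ETS core GGAAGT, the kind of sequence that EHF and its relatives bind, occurred in 4 of 26 (VIM, ZEB1, TPM1 and COL4A2) and in 19.5% of all promoters. The E2 box CAGGTG, bound by SNAI and ZEB factors, occurred in 2 of 26 (AXL and ZEB1) and in 17.5% of all. The CCAAT box occurred in 9 of 26 and 32.0% of all, and the GC box in 22 of 26 and 42.6% of all. The ETS core and the TEAD site share their first 4 letters but cannot match at the same place, and a match describes the letters, not a binding site.

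EHF itself followed the labels in every library. In A253 controls it was at 83.2, 84.5 and 91.4 CPM (counts scaled to the library total), and in overexpressing cells at 633, 711 and 765 CPM. SCC25 controls held 420 and 461 CPM, and overexpressing cells 860 and 892 CPM. CAL27 controls held 962 and 992 CPM, against 497 and 526 CPM with sh 64. With sh 65 the libraries held 444 and 469 CPM. The change was 8.13-fold in A253, 1.99-fold in SCC25 and 0.49-fold over the hairpins (log2 change -1.02, SE 0.06), with no overlap between groups in any line. The difference in EHF between the hairpins (log2 -0.16, SE 0.07) did not pass the test (edgeR quasi-likelihood, adjusted p = 0.23). Library totals ran from 7068155 to 19962159 counts.

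All 9 squamous markers, among them KRT5, KRT14, TP63 and DSG3, were at 1 CPM or more in every group. The 5 leukocyte markers summed to 124 to 129 CPM in A253 controls and 172 to 186 CPM with EHF raised, to 248 to 258 CPM over the SCC25 groups and to 35.3 to 41.6 CPM over the CAL27 groups. Almost all of it came from CD68, a lysosomal protein abundant in macrophages (123 and then 170 CPM in A253, 221 and then 216 CPM in SCC25), and from the monocyte receptor CD14 (2.78 and then 7.42 CPM, 30.3 and then 40.0 CPM). Both rose in A253, 1 of the 2 tested rose in SCC25 and neither passed in CAL27. The shares of all genes called higher were 5.03% in A253 and 12.2% in SCC25. In the same list PTPRC, the pan-leukocyte phosphatase, had group means from 0.12 to 0.34 CPM and the T cell gene CD3E from 0 to 0.23 CPM. The fibroblast genes THY1, DPT and COL14A1 had group means of at most 0.10 CPM. Others of that list were higher: FAP was at 7.64 and then 6.46 CPM in SCC25, PDGFRA at 2.44 CPM in A253 controls and PDGFRB at 1.03 CPM with sh 64. The 5 endothelial markers summed to 3.57 to 10.0 CPM over all groups. Of these, 1 of the 2 tested fell in CAL27, where 8.91% of all genes were called lower. Among them CDH5 was at 5.36 CPM in CAL27 controls, 2.59 CPM with sh 64 and 3.62 CPM with sh 65. The 8 fibroblast markers summed to 79.5 to 88.5 CPM in SCC25 controls and 76.9 to 82.0 CPM in overexpressing cells, most of it from the members LUM and DCN. Their sums were 2.76 to 3.37 CPM in A253 controls and 4.20 to 4.39 CPM in CAL27 controls, and reached 10.2 to 12.3 CPM with sh 64. The 5 salivary acinus markers summed to at most 0.29 CPM in A253, with 3 of them at 0 in each A253 group, and to at most 0.66 CPM in SCC25. In CAL27 they summed to 16.4 to 19.2 CPM in controls, 17.5 to 28.7 CPM with sh 64 and 8.96 to 21.98 CPM with sh 65, most of it from STATH, while PRB1 was at 0 in controls and at 1.42 and 1.39 CPM with sh 64 and sh 65. The 6 myoepithelial markers summed to 27.9 to 35.9 CPM in A253 controls, mostly from the oxytocin receptor OXTR, and to 28.1 to 30.0 CPM with EHF raised. Of the squamous markers, 6 of 9 rose with the knockdown in CAL27 and none fell, against 9.88% and 8.91% of all genes. Their sums there were 8033 to 8394 CPM in controls, 11021 to 11871 CPM with sh 64 and 11716 to 13117 CPM with sh 65. In SCC25, 4 of 9 rose (17068 to 17908 CPM in controls, 17740 to 18326 CPM with EHF raised), against 12.2% of all genes. In A253, 3 of 9 fell (13965 to 15026 and 12170 to 13142 CPM), against 2.94% of all genes. The part of these markers and shifts in the results below was not tested. In bulk RNA, fewer cells of a type and less RNA per cell cannot be told apart.

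The lines differed in the levels of these genes before EHF was changed. Levels per gene length (TPM, computed from the counts) could be set for 40 of the 42 genes, since MYL9 and POSTN have no counts in A253 from which to take a length. Among these 40, 23 were highest in SCC25 controls, 10 in CAL27 controls and 7 in A253 controls. Line and count table cannot be told apart here, so these levels are a description without a test.

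**Figure D1:**
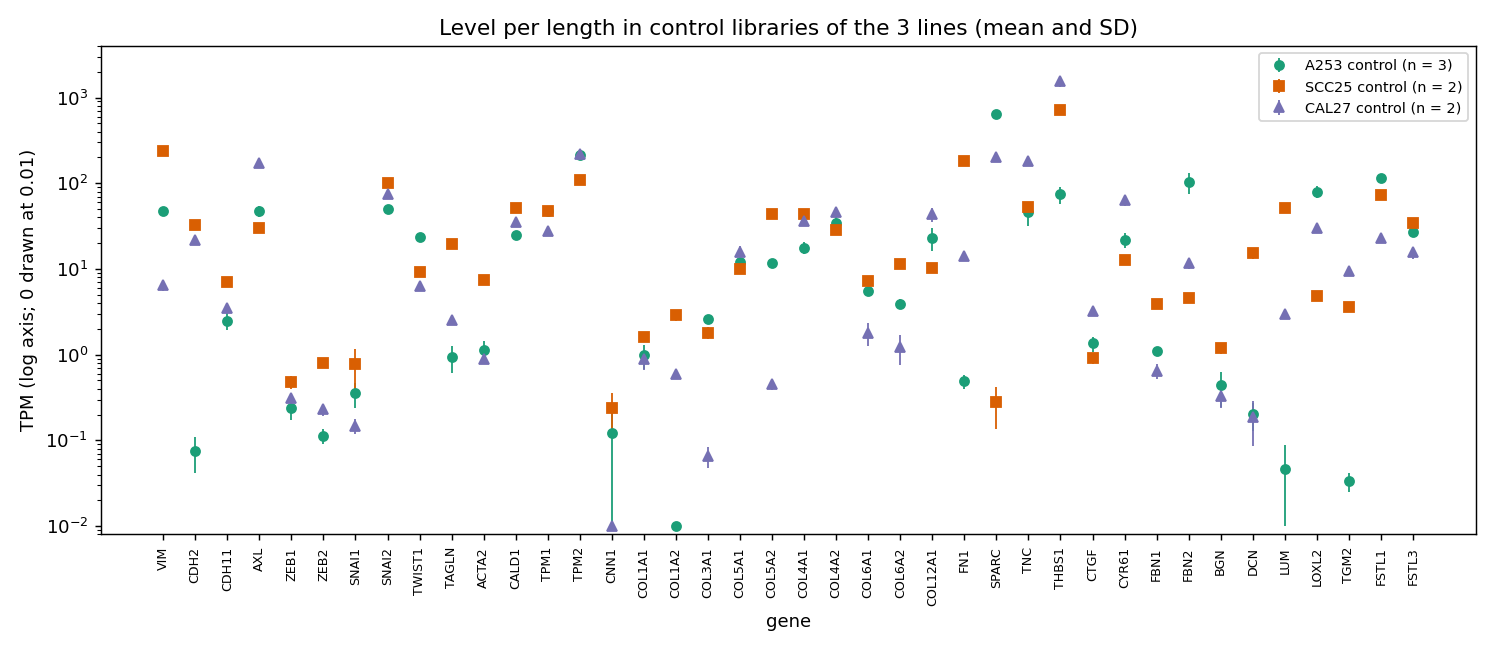
Level of each gene in control libraries of A253 (n = 3), SCC25 (n = 2) and CAL27 (n = 2), in TPM on a log axis, as mean with SD, with values of 0 drawn at 0.01. SPARC stands out by its spread between lines, from 0.28 TPM in SCC25 to 647 TPM in A253.

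VIM, the intermediate filament of mesenchymal cells, was at 235 ± 26.1 TPM in SCC25 (SD, n = 2), 46.9 ± 3.73 in A253 (SD, n = 3) and 6.50 ± 0.97 in CAL27 (SD, n = 2). FN1, fibronectin, followed the order SCC25, CAL27 and A253, at 183, 14.2 and 0.49 TPM. SPARC, a collagen-binding glycoprotein of matrix-remodelling cells, was arranged the other way, at 647 TPM in A253, 204 in CAL27 and 0.28 in SCC25. SCC25 was thus the line with the most vimentin and fibronectin and nearly no SPARC. THBS1, the adhesive glycoprotein thrombospondin that activates latent TGF-beta, was the most abundant member in SCC25 (716 TPM) and CAL27 (1546 TPM), with 74.2 TPM in A253. FBN2, a fibrillin of elastic microfibrils, stood at 103 TPM in A253 against 4.60 in SCC25 and 11.6 in CAL27. LUM and DCN, small proteoglycans that bind collagen fibrils, were at 51.0 and 15.2 TPM in SCC25 and at 2.95 and 0.19 TPM in CAL27.

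Of the EMT factors, only SNAI2 and TWIST1 were present at more than traces. SNAI2, also a factor of basal keratinocytes, stood at 50.6 ± 2.33 TPM in A253 (SD, n = 3), 99.7 ± 5.69 in SCC25 and 75.0 ± 3.35 in CAL27 (SD, n = 2). TWIST1 was highest in A253, at 23.4 TPM, with 9.17 in SCC25 and 6.37 in CAL27. ZEB1, ZEB2 and SNAI1 were each under 1 TPM in all 3 lines, from 0.11 TPM (ZEB2 in A253) to 0.81 TPM (ZEB2 in SCC25). The paired genes were not always balanced. COL4A1 and COL4A2 were at 17.7 and 34.8 TPM in A253, 44.3 and 28.7 in SCC25, and 36.2 and 46.2 in CAL27. CYR61 exceeded CTGF in each line, at 21.9 against 1.36 TPM in A253, 12.7 against 0.91 in SCC25 and 63.3 against 3.20 in CAL27. COL5A2 exceeded COL5A1 in SCC25 (43.9 and 9.97 TPM), the values were close in A253 (11.7 and 12), and COL5A1 exceeded COL5A2 in CAL27 (15.7 and 0.45). COL1A1 and COL1A2, the chains of type I collagen, were low throughout, at 0.99 and 0 TPM in A253, 1.6 and 2.92 in SCC25, and 0.89 and 0.59 in CAL27. COL1A2, MYL9 and POSTN had 0 counts in the 3 A253 controls together, which allows a level of up to 0.0649 CPM (3 counts of the total, counting error only). TPM1 and TPM2, tropomyosins of actin filaments, were at 48.1 and 212 TPM in A253, 47.0 and 108 in SCC25, and 28.1 and 217 in CAL27. COL6A1 and COL6A2 were at 5.48 and 3.94 TPM in A253, 7.14 and 11.3 in SCC25, and 1.81 and 1.21 in CAL27.

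Of the members that passed in SCC25, most were higher with EHF raised. Of those that passed in CAL27, not all the same genes, most were lower with EHF lowered. In A253 fewer passed. In SCC25, 17 of the 39 genes with enough counts to test rose with EHF and 2 fell, against 12.2% of all genes tested called higher and 11.6% called lower. In CAL27, 17 of 35 fell with the mean of the hairpins and 2 rose, against 8.91% of all genes called lower and 9.88% called higher. In A253, 2 of 32 rose and 6 fell, against 5.03% and 2.94% of all genes. The median log2 change of the members tested was 0.30 in SCC25, -0.40 in CAL27 and -0.15 in A253, while that of all genes tested was 0.00 in each. CDH11 passed the filter in CAL27 only through its controls, and so had to differ there. Without it, 16 of 34 fell in CAL27 and the median was -0.37. SNAI1, CNN1 and POSTN were too low to test in any line. CDH2, MYL9, COL1A2, BGN, DCN, LUM and TGM2 were too low in A253, and ZEB1, COL3A1, BGN and DCN in CAL27.

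**Figure D2:**
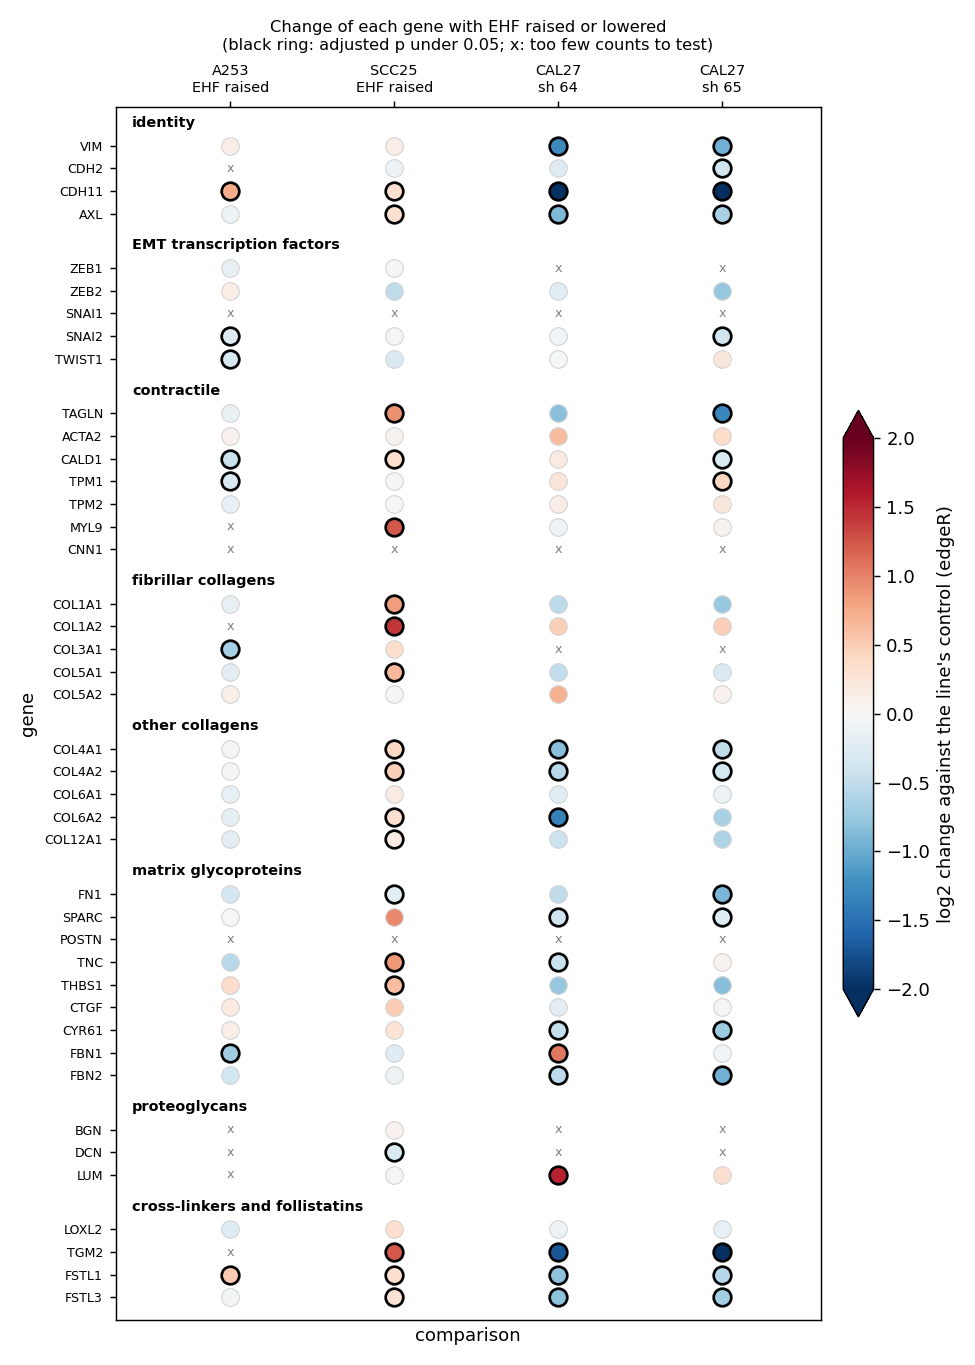
Log2 change of each of the 42 genes, by role, with EHF raised in A253 and SCC25 and lowered by either hairpin in CAL27. Red is higher and blue is lower than the line's control, a black ring marks an adjusted p under 0.05, and x marks too few counts to test. SCC25 has 17 ringed rises, while sh 64 has 13 and sh 65 has 16 ringed falls. The falls of each hairpin include CDH11, which passed the CAL27 filter only through its controls.

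Of the 35 genes tested in both SCC25 and CAL27, 11 were called in both, and 10 of these rose with EHF raised in SCC25 and fell with EHF lowered in CAL27: CDH11, AXL, TAGLN, COL4A1, COL4A2, COL6A2, THBS1, TGM2, FSTL1 and FSTL3. FN1 fell in both. Over all genes, 948 were called in both lines, and 313 of them (33.0%) went in opposite directions, so that most of the shared calls over the whole table had the same sign in both lines. Without CDH11, which had to differ in CAL27, 9 of 10 were opposite. The SCC25 and CAL27 comparisons share no library. The 10 genes were 7 or more under each alternative of either fit (6 or more without CDH11), and 5 (AXL, COL4A1, COL4A2, FSTL1 and TGM2) kept both calls in every one. Between A253 and SCC25, 3 members were called in both: CDH11 and FSTL1 rose in both, and CALD1 moved in opposite directions. Over all genes, 62 of the 507 called in both of these lines (12.2%) were opposite. Between A253 and CAL27, SNAI2 fell in both, while CDH11, FSTL1 and TPM1 were called in opposite directions. Over all genes, 216 of 376 (57.4%) were opposite between A253 and CAL27, so most shared calls there were opposite whether members or not. FSTL1 was called in all 3 lines, higher with more EHF and lower with less. CDH11 had calls with the same signs, of which the one in CAL27 rests on the filter. In all, 30 members were called in at least 1 line and 12 in none, of which 3 were too low to test in any line. The share of all genes called in at least 1 line was not computed, so these counts stand without a background.

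**Figure D3:**
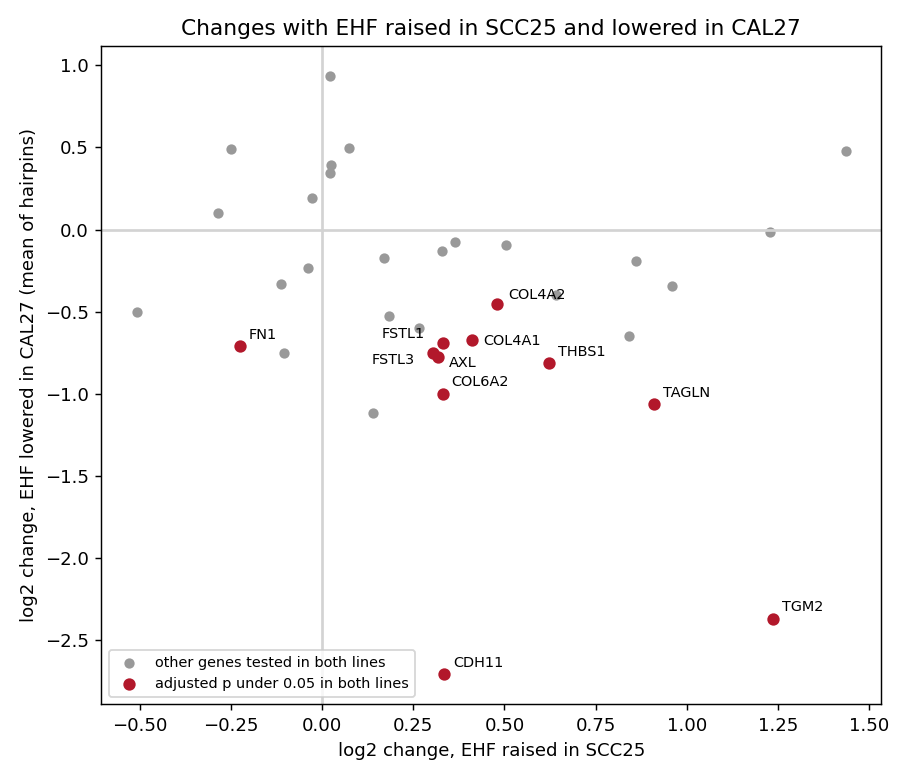
Log2 change with EHF raised in SCC25 (horizontal) against the change with EHF lowered in CAL27 (vertical, mean of the hairpins) for the 35 genes tested in both lines. Red points passed the test in both lines, and 10 of these 11 lie at the lower right, with FN1 at the lower left. One of the 10 is CDH11, which passed the CAL27 filter only through its controls.

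Among the cell identity genes, VIM, CDH2 and AXL, the 3 of 3 other than CDH11, fell with the knockdown in CAL27. Over all genes tested there, 8.91% were called lower. CDH11, a cadherin of mesenchymal cells and osteoblasts, was at 6.64 and 6.51 CPM in CAL27 controls and at 1.08 and 0.57 CPM with sh 64 and 1.34 and 0.85 CPM with sh 65. Each knockdown library was below both controls, which is given as a description with no test, since the filter kept CDH11 in CAL27 for its controls alone. In A253 it rose from 3.91, 5.46 and 4.15 CPM to 6.76, 7.85 and 8.08 CPM with EHF (log2 change 0.74, SE 0.15, edgeR adjusted p = 0.0049), with no overlap. In SCC25 it went from 13.4 ± 1.95 to 16.9 ± 1.43 CPM (SD, n = 2; log2 change 0.33, SE 0.12, adjusted p = 0.042), a call that was lost with DESeq2, without overexpression replicate 1 or without control replicate 1 (adjusted p from 0.24 to 0.36). AXL, a receptor tyrosine kinase linked to invasion and drug resistance, was at 461 and 387 CPM in CAL27 controls. It was at 214 and 242 CPM with sh 64 and 301 and 239 CPM with sh 65, so each knockdown library lay below both controls (log2 change -0.77, SE 0.10, adjusted p = 0.00038). In SCC25 AXL rose from 72.8 ± 3.51 to 91.0 ± 4.41 CPM (SD, n = 2; log2 change 0.32, SE 0.06). Its change in A253 was -0.12 (SE 0.08, adjusted p = 0.48).

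VIM fell in CAL27. It was at 7.85 and 6.51 CPM in controls there, 2.09 and 4.25 CPM with sh 64 and 4.11 and 3.03 CPM with sh 65, with no overlap (log2 change -1.12, SE 0.23, adjusted p = 0.0024). The changes in A253 (0.13, SE 0.08) and SCC25 (0.14, SE 0.14) did not pass the test. With sh 64 alone against control, the VIM call was lost without sh 64 replicate 1 (adjusted p = 0.18). With sh 65 alone against control, it was lost under 4 of 9 alternatives (0.052 to 0.12). CDH2, N-cadherin, fell slightly in CAL27, from 49.0 ± 0.07 CPM (SD, n = 2) to 38.9 ± 3.52 CPM (SD, n = 4; log2 change -0.33, SE 0.09, adjusted p = 0.012), a call lost with DESeq2 and without either control library (adjusted p from 0.051 to 0.13). It was nearly silent in A253, at 0 to 0.23 CPM in the 6 libraries.

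The EMT transcription factors gave small changes. SNAI2 was lower by 0.26 on the log2 scale in A253 (44.2 ± 2.90 against 52.9 ± 0.90 CPM, SD, n = 3, adjusted p = 0.029) and TWIST1 by 0.34 (15.4 ± 1.26 against 19.4 ± 0.34 CPM, adjusted p = 0.030). Each of these calls was lost under 6 of 10 alternatives, with adjusted p from 0.054 to 0.14 for SNAI2 and 0.052 to 0.14 for TWIST1. In CAL27 SNAI2 changed by -0.23 (SE 0.07, adjusted p = 0.033), from 81.9 ± 2.18 CPM in controls to 69.8 ± 9.52 CPM (SD, n = 4), with overlapping libraries and with the call lost under 4 of 9 alternatives (0.067 to 0.28). The fall was seen with sh 65 (-0.40, SE 0.09, adjusted p = 0.0044) and not with sh 64 (-0.07, SE 0.09), and the hairpins differed (log2 -0.32, SE 0.09, adjusted p = 0.040). In SCC25 none of the 4 factors tested passed: SNAI2 changed by -0.04, TWIST1 by -0.29, ZEB1 by 0.02 and ZEB2 by -0.51 (SE 0.21, adjusted p = 0.083). ZEB2 changed by 0.15 in A253 and -0.50 in CAL27, ZEB1 by -0.15 in A253, and TWIST1 by 0.10 in CAL27, none past the test.

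Of the contractile genes, 3 of 6 tested rose in SCC25, 2 of 5 fell in A253, and 1 rose and 1 fell of 6 in CAL27. Over all genes, 12.2% were called higher in SCC25, 2.94% lower in A253, and 9.88% higher and 8.91% lower in CAL27. The counts in CAL27 were close to these shares. TAGLN, the actin-binding protein SM22 of smooth muscle and myofibroblasts, was at 14.6 and 16.8 CPM in SCC25 controls and 30.2 and 29.0 CPM with EHF (log2 change 0.91, SE 0.10, edgeR adjusted p = 1.2e-07). MYL9, the regulatory light chain of non-muscle and smooth muscle myosin, was at 4.26 and 4.06 CPM and then 10.00 and 9.58 CPM (log2 change 1.23, SE 0.16, adjusted p = 2.7e-06). In both genes the overexpressing libraries were about alike and well above both controls. CALD1, caldesmon, which regulates actomyosin, rose in SCC25 from 145 ± 0.61 to 187 ± 10.8 CPM (SD, n = 2; log2 change 0.37, SE 0.05) and fell in A253 from 67.6 ± 1.6 to 49.6 ± 2.88 CPM (SD, n = 3; log2 change -0.45, SE 0.07, adjusted p = 0.00043). In CAL27 TAGLN was close to the detection limit, at 1.99 and 2.12 CPM in controls, 0.93 and 1.56 CPM with sh 64 and 0.62 and 1.09 CPM with sh 65. All 4 knockdown libraries were below both controls (log2 change -1.06, SE 0.33, adjusted p = 0.033), but the call was lost under 4 of 8 alternatives (adjusted p from 0.098 to 0.28). CALD1 fell with sh 65 (-0.32, SE 0.09, adjusted p = 0.020) and not with sh 64 (0.17, SE 0.09), and the sh 65 call was lost under 4 of 9 alternatives (0.051 to 0.19).

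TPM1 fell with EHF raised in A253, as CALD1 did, and rose with EHF lowered in CAL27, where most members called were lower. It went from 80.0 ± 5.35 to 64.2 ± 3.37 CPM in A253 (SD, n = 3; log2 change -0.31, SE 0.07, adjusted p = 0.0099), a call lost without control replicate 1 (adjusted p = 0.080). In CAL27 it went from 48.8 ± 0.17 CPM (SD, n = 2) to 62.0 ± 5.59 CPM (SD, n = 4; log2 change 0.35, SE 0.08, adjusted p = 0.0054), a call lost without control replicate 1 or 2 (0.071 to 0.096). In SCC25 its change was 0.02 (SE 0.06). TPM2 changed by -0.16, -0.03 and 0.19 in A253, SCC25 and CAL27, with adjusted p of 0.17, 0.80 and 0.057. ACTA2, the smooth muscle actin of myofibroblasts, was at 1.03, 7.02 and 0.87 CPM in A253, SCC25 and CAL27 controls and did not pass in any line. MYL9 in CAL27 changed by -0.01 (SE 0.31). How reads shared between tropomyosin genes or between actin genes were counted is not given in the sources used here, so these values carry that uncertainty.

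**Figure D4:**
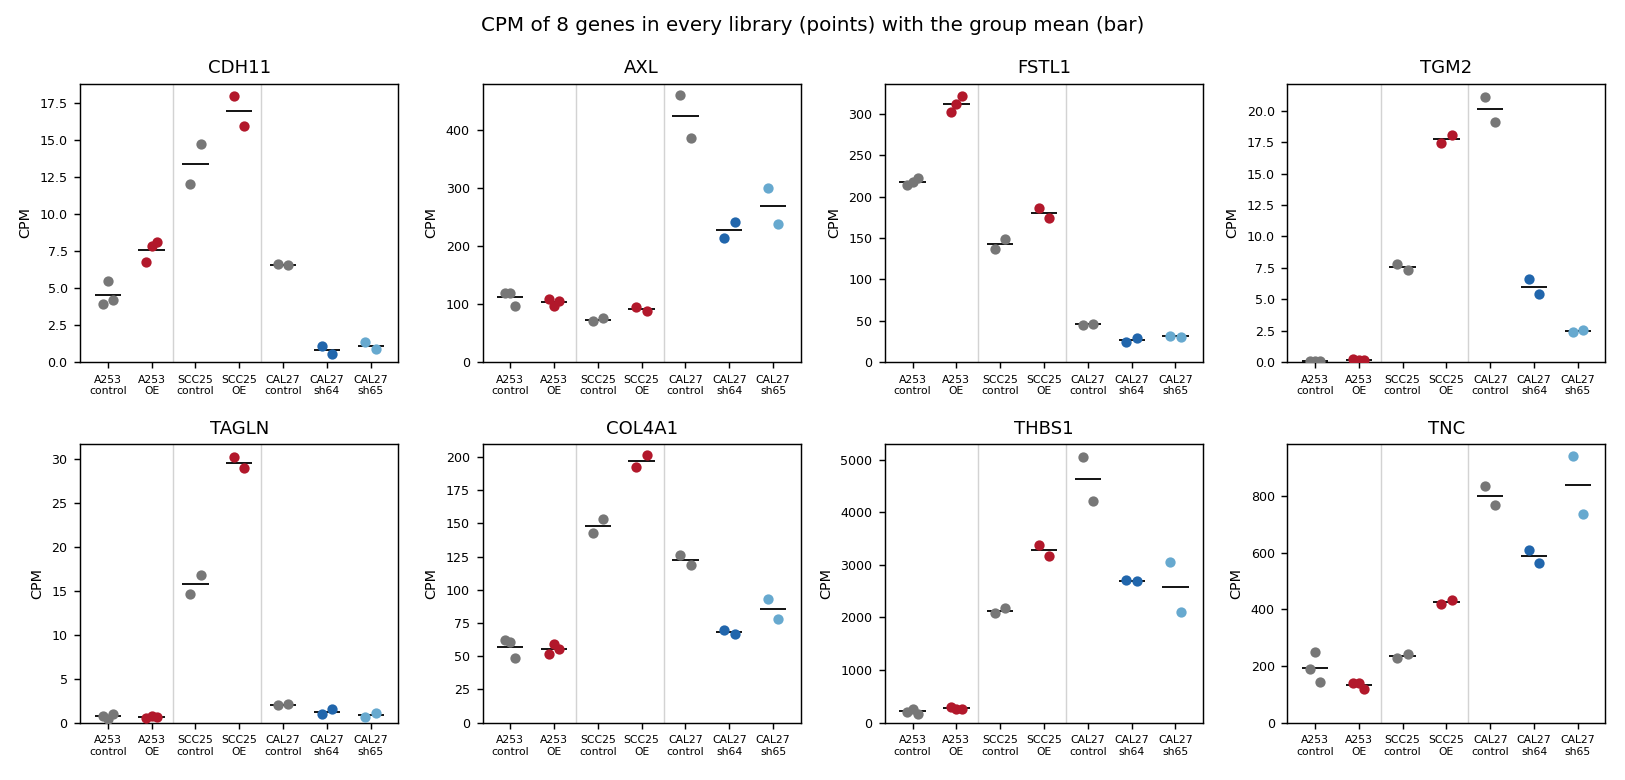
CPM of 8 genes in each of the 16 libraries (points) with the group mean (bar), by line and group, OE being EHF overexpression, on axes that start at 0. All 8 genes shown were called higher in SCC25, so their separation there is no separate result. For every gene but TNC, each knockdown library in CAL27 lies below both controls. CDH11 passed the CAL27 filter only through its controls.

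Fibrillar collagens rose in SCC25, 3 of 5, where 12.2% of all genes were called higher. Of these, COL1A1 and COL1A2 rose from low levels. COL1A2 was at 8.71 and 7.44 CPM in controls and 19.3 and 24.0 CPM with EHF (log2 change 1.44, SE 0.13, adjusted p = 5.5e-09), the largest change of any member in that line. COL1A1, its partner chain, was at 4.82 and 4.87 CPM and then 9.34 and 8.19 CPM (log2 change 0.84, SE 0.16, adjusted p = 0.00036). COL5A1, which nucleates type I collagen fibrils, was at 43.6 and 42.5 CPM and then 66.7 and 67.6 CPM (log2 change 0.64, SE 0.06, adjusted p = 4.4e-08). The groups did not overlap for any of the 3 genes. COL5A2, the partner of COL5A1, changed by 0.03 (SE 0.05) and COL3A1 by 0.34 (SE 0.17, adjusted p = 0.16). In A253 COL3A1 fell, from 7.88, 6.75 and 6.85 CPM to 4.13, 4.95 and 4.56 CPM (log2 change -0.65, SE 0.14, adjusted p = 0.0062), with no overlap. That call was lost without control replicate 1 (adjusted p = 0.056). None of the 4 fibrillar collagens tested passed in CAL27, where COL1A1 changed by -0.65 (SE 0.30, adjusted p = 0.15) and COL1A2 by 0.48 (SE 0.28, adjusted p = 0.25).

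The basement membrane pair COL4A1 and COL4A2 moved together in both tongue lines. In SCC25 COL4A1 rose from 148 ± 7.2 to 197 ± 6.70 CPM (SD, n = 2; log2 change 0.41, SE 0.05) and COL4A2 from 91.8 ± 4.81 to 128 ± 9.76 CPM (log2 change 0.48, SE 0.06, edgeR adjusted p = 1.5e-06). In CAL27 COL4A1 was at 126 and 119 CPM in controls, 70.0 and 67.1 CPM with sh 64 and 93.1 and 78.2 CPM with sh 65 (log2 change -0.67, SE 0.08, adjusted p = 7.1e-06). COL4A2 fell there from 150 ± 11 CPM (SD, n = 2) to 109 ± 14.4 CPM (SD, n = 4; log2 change -0.46, SE 0.09, adjusted p = 0.0018). These are the genes whose start sites lie 126 bases apart in the stretch printed above. In A253 neither passed the test, with changes of -0.06 (SE 0.09) and -0.05 (SE 0.12). With sh 65 alone against control, the COL4A2 call (-0.36, adjusted p = 0.027) was lost without control replicate 1 or sh 65 replicate 2 (0.14 to 0.22).

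COL6A2, a chain of the beaded filaments around cells, rose in SCC25 from 25.2 ± 2.02 to 31.9 ± 3.55 CPM (SD, n = 2; log2 change 0.33, SE 0.09, adjusted p = 0.011). That call was lost with DESeq2, without overexpression replicate 1 or without control replicate 1 (0.065 to 0.18). In CAL27 it was at 3.43 and 2.02 CPM in controls, 1.08 and 0.85 CPM with sh 64 and 1.44 and 1.82 CPM with sh 65. The libraries did not overlap (log2 change -1.0, SE 0.31, adjusted p = 0.034), but the call was lost under 5 of 9 alternatives (0.057 to 0.35). COL6A1 changed by -0.16, 0.17 and -0.18 in A253, SCC25 and CAL27, none past the test. COL12A1, a collagen that bridges fibrils, rose by 0.18 in SCC25 (60.2 ± 2.22 to 68.4 ± 0.52 CPM, SD, n = 2, adjusted p = 0.030), lost under 4 of 8 alternatives (0.13 to 0.26), and its change in CAL27 was -0.52 (SE 0.17, adjusted p = 0.11).

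Of the 8 matrix glycoproteins tested in each line, 2 rose and 1 fell in SCC25, 5 fell in CAL27 and 1 fell in A253. Over all genes, 12.2% were called higher and 11.6% lower in SCC25, 8.91% lower in CAL27 and 2.94% lower in A253. The counts in SCC25 were close to these shares. THBS1 was at 2079 and 2173 CPM in SCC25 controls and 3378 and 3168 CPM with EHF (log2 change 0.62, SE 0.05, edgeR adjusted p = 2.2e-09). In CAL27 it was at 5046 and 4222 CPM in controls, 2713 and 2686 CPM with sh 64 and 3054 and 2104 CPM with sh 65. Each knockdown library was below both controls (log2 change -0.81, SE 0.17, adjusted p = 0.035), yet the call was lost without control replicate 1, sh 64 replicate 1 or sh 64 replicate 2 (0.073 to 0.11), and neither hairpin alone passed (0.069 with sh 64, 0.059 with sh 65). TNC, tenascin-C of healing wounds and tumour stroma, was at 230 and 241 CPM in SCC25 controls and 419 and 435 CPM with EHF (log2 change 0.86, SE 0.05, adjusted p = 2e-12). In CAL27 TNC fell with sh 64 (588 ± 31.7 against 802 ± 47.4 CPM, SD, n = 2; log2 change -0.44, SE 0.10, adjusted p = 0.010) but was at 839 ± 146 CPM with sh 65 (0.07, SE 0.10, adjusted p = 0.72). The sh 64 call was lost without sh 64 replicate 1, without sh 64 replicate 2 or without control replicate 1 (0.055 to 0.083). In A253 the TNC change was -0.55 (SE 0.23, adjusted p = 0.31).

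FN1 fell in both tongue lines, whichever way EHF was moved. In SCC25 it went from 843 ± 3.49 to 721 ± 18.2 CPM (SD, n = 2; log2 change -0.23, SE 0.05, adjusted p = 0.0023), a call lost without overexpression replicate 1 (0.096). In CAL27 it was at 70.2 and 61.9 CPM in controls, 44.3 and 48.7 CPM with sh 64 and 42.3 and 26.9 CPM with sh 65 (log2 change -0.71, SE 0.15, adjusted p = 0.011). This call was lost without control replicate 1 (0.068), and with sh 64 alone FN1 did not pass (-0.51, SE 0.17, adjusted p = 0.083). CYR61, a matricellular YAP target that signals through integrins, was at 81.3 and 69.1 CPM in CAL27 controls, 55.6 and 51.9 CPM with sh 64 and 47.5 and 42.5 CPM with sh 65 (log2 change -0.60, SE 0.08, adjusted p = 7.3e-05). The sh 64 call for CYR61 was lost without control replicate 1 (0.085). Its relative CTGF, with 3 TEAD sites in the stretch printed above, changed by -0.10 (SE 0.21) in CAL27, 0.50 (SE 0.33) in SCC25 and 0.19 (SE 0.27) in A253, and passed the test in none. SPARC fell in CAL27 from 380 ± 6.66 CPM (SD, n = 2) to 301 ± 15.9 CPM (SD, n = 4; log2 change -0.34, SE 0.06, adjusted p = 0.00065). With sh 65 alone against control, the SPARC call was lost without control replicate 1 or 2 (0.090 to 0.15). In A253, where it was most abundant, SPARC changed by 0.01 (SE 0.06).

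Of the fibrillins, FBN2 fell in CAL27 and FBN1 fell in A253. FBN2 was at 70.1 and 59.1 CPM in CAL27 controls, 44.1 and 44.9 CPM with sh 64 and 36.9 and 28.3 CPM with sh 65, with no overlap (log2 change -0.75, SE 0.10, edgeR adjusted p = 4.9e-05). With sh 64 alone against control, its call was lost without control replicate 1 or sh 64 replicate 1 (0.078 to 0.083). FBN1, the main fibrillin of adult tissue, was at 4.42 and 3.43 CPM in the same controls, 9.04 and 6.37 CPM with sh 64, and 3.80 and 3.39 CPM with sh 65. It rose with sh 64 alone (log2 change 1.06, SE 0.23, adjusted p = 0.0042, lost under 3 of 9 alternatives, 0.059 to 0.16), and its mean change did not pass (0.49, SE 0.21, adjusted p = 0.12). In A253 FBN1 fell from 6.04, 6.64 and 6.67 CPM to 3.85, 3.84 and 4.11 CPM (log2 change -0.71, SE 0.14, adjusted p = 0.0032), with every overexpressing library below every control. FBN2 changed there by -0.38 (SE 0.20, adjusted p = 0.43), and in SCC25 FBN1 and FBN2 changed by -0.25 and -0.10, neither past the test.

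Of the proteoglycans, LUM rose in CAL27, from 3.10 and 3.38 CPM in controls to 8.58 and 10.9 CPM with sh 64, while sh 65 gave 3.18 and 5.21 CPM. The mean change passed (log2 change 0.94, SE 0.22, adjusted p = 0.0061), with sh 65 overlapping the controls and the call lost without control replicate 2 (0.059). In SCC25, where LUM was abundant, its change was 0.02 (SE 0.07). DCN fell there from 19.5 ± 1.90 to 15.7 ± 0.31 CPM (SD, n = 2; log2 change -0.32, SE 0.11, adjusted p = 0.030), a call lost under 4 of 8 alternatives (0.065 to 0.28). BGN, at 1.30 to 1.69 CPM in SCC25 controls, changed by 0.08 (SE 0.35).

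TGM2, tissue transglutaminase, which cross-links fibronectin and other matrix proteins, moved strongly in both tongue lines. It was at 7.78 and 7.30 CPM in SCC25 controls and 17.4 and 18.1 CPM with EHF (log2 change 1.24, SE 0.12, adjusted p = 3e-08). In CAL27 it was at 21.1 and 19.1 CPM in controls, 6.57 and 5.38 CPM with sh 64 and 2.36 and 2.54 CPM with sh 65 (log2 change -2.37, SE 0.15, edgeR adjusted p = 1.8e-08). The 3 CAL27 groups did not overlap, and sh 65 was lower than sh 64 (log2 -1.31, SE 0.24, adjusted p = 0.0029), a difference lost without sh 64 replicate 1 (0.086). In A253 TGM2 was at 0.06 to 0.21 CPM in the 6 libraries and too low to test. FSTL1, a secreted glycoprotein of the SPARC family, rose in A253 from 218 ± 4.69 to 312 ± 9.50 CPM (SD, n = 3; log2 change 0.52, SE 0.06, adjusted p = 1.8e-05) and in SCC25 from 143 ± 8.27 to 180 ± 8.12 CPM (SD, n = 2; log2 change 0.33, SE 0.05, adjusted p = 5.9e-05). In CAL27 it was at 45.1 and 46.4 CPM in controls, 24.3 and 28.4 CPM with sh 64 and 31.2 and 30.5 CPM with sh 65 (log2 change -0.69, SE 0.09, adjusted p = 3.4e-05). FSTL1 kept these 3 calls under all alternatives run.

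FSTL3 was at 22.3 and 18.3 CPM in CAL27 controls, 13.1 and 8.92 CPM with sh 64 and 13.3 and 11.4 CPM with sh 65 (log2 change -0.75, SE 0.14, adjusted p = 0.0013). Every knockdown library lay below both controls, and with sh 65 alone the call was lost without control replicate 1 (0.097). In SCC25 it rose from 44.3 ± 0.50 to 55.0 ± 6.21 CPM (SD, n = 2; log2 change 0.30, SE 0.07, edgeR adjusted p = 0.0038), lost with DESeq2 and without overexpression replicate 1 (0.058 to 0.17). LOXL2, a lysyl oxidase relative that oxidises collagen IV and has been tied to SNAI1, did not pass in any line, with changes of -0.28 (adjusted p = 0.054) in A253, 0.33 (0.057) in SCC25 and -0.13 (0.40) in CAL27.

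The hairpins were also tested against control and against each other. With sh 64, 13 of 35 fell and 2 rose, against 6.89% of all genes called lower and 8.76% higher. With sh 65, 16 fell and 1 rose, against 7.01% and 7.62%. Both counts of falls include CDH11, which passed the filter only through the controls and so had to differ. Each hairpin shares the control libraries with the other. In the direct comparison, 1 of 35 members was higher with sh 65 than with sh 64 (TNC) and 6 were lower (SNAI2, CALD1, FBN1, FBN2, LUM and TGM2), against 2.21% and 3.13% of all genes. CALD1 was at 80.2 ± 7.35 CPM with sh 65, against 112 ± 7.17 CPM for sh 64 libraries (SD, n = 2; log2 -0.49, SE 0.09, edgeR adjusted p = 0.0023), and TNC at 839 ± 146 and 588 ± 31.7 CPM (log2 0.51, SE 0.10, adjusted p = 0.010). For FBN1, LUM and FBN2 the differences were -1.13, -1.21 and -0.44 (adjusted p = 0.010, 0.0058 and 0.0496). All 7 differences were lost under at least 1 alternative: without sh 64 replicate 1 only 1 member remained called.

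Between the overexpressing lines, 5 of 39 members tested had a more positive response in SCC25 than in A253 (AXL, CALD1, COL3A1, COL4A1 and LOXL2) and none a more negative one, against 2.39% and 3.25% of all genes. The 39 include CDH2, MYL9, COL1A2, BGN, DCN, LUM and TGM2, which were too low to test in A253 alone. For these genes the comparison says little about a difference. CALD1, which rose in SCC25 and fell in A253, had the smallest adjusted p of the 5 (log2 difference 0.80, SE 0.09, edgeR adjusted p = 1.6e-05) and kept its call under all alternatives. COL3A1 differed by 0.98 (SE 0.22, adjusted p = 0.010) and LOXL2 by 0.59 (SE 0.15, adjusted p = 0.028), although LOXL2 passed in neither line. AXL (0.43, adjusted p = 0.041) and COL4A1 (0.45, SE 0.13, adjusted p = 0.049) were lost under 10 and 8 of 14 alternatives, with adjusted p of 0.050 to 0.19 and 0.079 to 0.19. LOXL2 was lost under 5 of 14 (0.059 to 0.15) and COL3A1 under 3 (0.060 to 0.081). TNC, at 0.86 in SCC25 and -0.55 in A253, had a larger difference that missed the threshold (1.39, SE 0.30, adjusted p = 0.056). EHF itself rose less in SCC25 than in A253 (log2 difference -2.05, SE 0.11).

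Genes related to the members by pathway were counted against the same shares of all genes called, 5.03% higher and 2.94% lower in A253, 12.2% and 11.6% in SCC25, and 9.88% and 8.91% in CAL27. Of 22 epithelial counterparts (junction, splicing and keratin genes such as CDH1, GRHL2, ESRP1 and KRT8), 3 rose and none fell in A253, 6 rose and none fell of 22 in SCC25, and 7 rose and 2 fell of 21 tested in CAL27, where the falls were near the share of all genes. CLDN7, a tight junction claudin, rose in each line whichever way EHF was moved, by 0.42 in A253, 0.64 in SCC25 and 1.07 in CAL27. ST14, a membrane serine protease, rose in A253 (0.58), and GRHL1, a grainyhead factor of barrier epithelium, rose in SCC25 (0.66). In CAL27 ELF3, another epithelial ETS factor, rose by 1.17 (SE 0.10, from 38.3 ± 2.85 to 90.5 ± 30.5 CPM, edgeR adjusted p = 1.4e-06), and KRT8 and KRT18, the simple epithelial keratins, fell by 0.22 each over the hairpins. For KRT8 the fall was that of sh 64 (459 CPM against 636 CPM in controls, log2 change -0.47), since sh 65 stood at 646 CPM and the hairpins differed (log2 0.49, edgeR adjusted p = 0.0005).

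In the TGF-beta pathway, 1 rose and 5 fell of 27 in A253, 7 rose and 5 fell of 27 in SCC25, and 2 rose and 7 fell of 25 in CAL27. The rises in A253 and CAL27 were near the share of all genes called higher. PMEPA1, a TGF-beta target that dampens SMAD signalling, went with EHF in the 3 lines: higher by 0.61 (SE 0.09) in A253 and 0.46 (SE 0.06) in SCC25 and changed by -1.07 (SE 0.09) in CAL27. TGFB2, a ligand, rose in SCC25 from 93.1 ± 1.17 to 192 ± 1.98 CPM (SD, n = 2; log2 change 1.04, SE 0.05) and fell in CAL27 from 89.2 ± 6.68 CPM (SD, n = 2) to 50.4 ± 4.24 CPM (SD, n = 4; log2 change -0.81, SE 0.08). ITGB6, an integrin subunit that releases latent TGF-beta, rose in CAL27 by 0.73 and LTBP1, which stores it, by 0.56. The decoy receptor BAMBI fell by 0.54 in A253 and 0.75 in SCC25. SMAD7, an inhibitor, fell by 0.56 in A253, and the coreceptor TGFBR3 fell by 0.88 in SCC25. With sh 65 alone, INHBA, the activin A subunit, was lower than in controls by 1.19, and it was lower with sh 65 than with sh 64 (log2 -1.51).

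Of 22 YAP and SRF pathway genes, 11 rose and none fell in SCC25, 2 rose in A253 and 2 rose in CAL27, with none falling in those lines. The counts in A253 and CAL27 were near the share of all genes called higher. ANKRD1, a YAP target, rose in A253 (1.02, SE 0.24) and SCC25 (0.72, SE 0.20), and AJUBA, a scaffold that restrains LATS kinases, rose in SCC25 (0.65, SE 0.05). TEAD2 rose in A253 by 0.31 and in CAL27 by 0.46, and the actin gene ACTG1 rose in CAL27 by 0.32. Of the collagen processing and cross-linking genes, 1 of 18 rose in A253, 2 of 18 rose and 2 fell in SCC25, and 1 of 16 rose and 3 fell in CAL27. In A253 and SCC25 these counts were near the shares of all genes. LOXL4, a lysyl oxidase relative, rose in both tongue lines, from 11.2 ± 1.25 to 24.8 ± 0.22 CPM in SCC25 (SD, n = 2; log2 change 1.15) and from 3.80 ± 0.73 CPM (SD, n = 2) to 10.8 ± 1.1 CPM (SD, n = 4) in CAL27 (1.56). The chaperone SERPINH1 fell by 0.17 in SCC25, the collagen galactosyltransferase GLT25D1 fell by 0.20 in SCC25 and 0.38 in CAL27, PLOD3, a lysyl hydroxylase, fell by 0.47 in CAL27, and PLOD2 rose by 0.35 in A253 and the procollagen proteinase BMP1 by 0.32 in SCC25. Among other matrix genes, 2 of 24 rose and 3 fell in A253, 11 of 25 rose and 1 fell in SCC25, and 3 of 23 rose and 8 fell in CAL27. The laminin chain LAMB3 rose by 0.49 in SCC25. EFEMP1, a fibulin, rose in A253 by 0.54 and COL13A1, a membrane collagen, by 1.07, while COL18A1 fell by 0.48 and COL16A1 by 0.42. MATN2 rose by 0.56 and NID1 fell by 0.21 in SCC25, and LAMB1 fell by 0.43, THBS2 rose by 1.42 and LAMA5 rose by 0.50 in CAL27.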

How the data were processed

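Per the labels' protocols, RNA was taken in Trizol, enriched for mRNA and prepared with an Illumina TruSeq RNA kit. The submitters' processing notes name, in no stated order, featureCounts 1.5.3 and TopHat2 2.1.1, also DESeq2 1.12.4 and Bowtie 1.1.1. Whether counting used strand is not given in the sources used here. The deposited count tables hold the authors' raw counts per gene symbol, 1 table per line. The deposited TPM tables were used only to read gene lengths (A253) and to check names (CAL27), and that of SCC25 was not used here. The CAL27 counts had 696 altered gene names, so names were taken by position from A253. SCC25 rows were named by position too, and their own names were not compared. The length check that follows covers A253 and CAL27 only. Gene lengths implied by counts and TPM of both lines differed by less than 0.01 (log2) in 18450 of 18450 genes.

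The tests used edgeR 4.0.16 under R 4.3.3 (filterByExpr at its defaults, TMM scaling, robust quasi-likelihood fit) over the whole table of each line, with the 3 CAL27 groups in 1 fit and a joint fit of A253 and SCC25 for the difference between lines. P-values are two-sided and Benjamini-Hochberg adjusted over all genes tested, with a threshold of 0.05. Fold changes are edgeR log2 changes, and SE is the change divided by the square root of its F. The scripts were tested on simulated data. Replicate pairs of a group differed by more than sampling noise (chi-square per degree of freedom from 2.58 to 17.9). The highest value was that of the SCC25 overexpression pair, against 3.08 for the SCC25 controls. Each library was counted as its own sample, though this spread does not show that libraries came from separate cultures. Same-numbered libraries did not consistently deviate together in A253 (correlations -0.41, -0.08 and 0.44) or SCC25 (-0.01), so replicates were not paired. Some A253 libraries with different numbers had larger values, control 2 with overexpression 1 at 0.57 and with overexpression 3 at -0.61. The source of these shared deviations was not tested. Alternatives were DESeq2 1.42.0, relative log expression factors, no filter on low counts, each library left out, a replicate block and, for levels, CPM without length.

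The members, marker lists and other lists (epithelial counterparts, TGF-beta pathway, YAP and SRF pathway, collagen processing and cross-linking, other matrix genes) were chosen with earlier results of these data known. Every member past the threshold was named, with its value in every library where it changed at least 1.5-fold and reached a mean of 1 CPM. From each other list at most 2 rises and 2 falls per comparison were named. A few genes that this rule would name are not reported here.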

Additional observations from a re-analysis of the deposited data

Results flagged for a closer look

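In 2 of 35 members tested, 1 of the 4 CAL27 knockdown libraries stood apart from the other libraries of its group: sh 65 replicate 2 held 33.7 CPM of CDH2 (a gap of 0.907 of the group's range) and 138 CPM of COL12A1 (0.84). Chance flags about 1 in 20 such groups. The response to EHF overexpression differed between SCC25 and A253, by the test of the difference itself, for CALD1 (log2 difference 0.80), COL3A1 (0.98), LOXL2 (0.59), COL4A1 (0.45) and AXL (0.43). Between the hairpins, sh 65 minus sh 64, the test of the difference passed for TGM2 (-1.31), LUM (-1.21), FBN1 (-1.13), CALD1 (-0.49), FBN2 (-0.44), SNAI2 (-0.32) and TNC (0.51).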

How the results depend on the processing

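Of 823 values of single called members under alternatives, 686 kept direction and call, 137 kept direction and lost the call, and 0 reversed. Leaving out 1 library gave 4 to 8 called members in A253 (8 with all libraries; 4 without control replicate 1), 12 to 22 over the CAL27 hairpins (19; 12 without control replicate 1), 9 to 19 with sh 65 (17; 9 without control replicate 1), 1 to 9 between the hairpins (7; 1 without sh 64 replicate 1 and 4 without sh 64 replicate 2) and 1 to 8 for SCC25 against A253 (5). With DESeq2, 4 members differed between the hairpins. The cause was not tested. Every other count of called members stayed within 1.5 times under DESeq2, other scaling factors and no filter. Members higher in SCC25 and lower in CAL27 numbered 7 to 13 under alternatives chosen after seeing the data (10 in the report; 9 with CDH11 left out). With a replicate block, 8 members were called in A253, 20 in SCC25 and 6 for the difference between the lines; the numbers do not pair these samples. No paired analysis was possible in CAL27 because its knockdown columns are tied to no numbered sample. Ranking levels by CPM without length left the counts of members highest in each line within 1.5 times. Each CAL27 and SCC25 arm has 2 libraries, which limits the precision, and 3 members had too few counts to test in any line.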
